A study of Mus musculus with 14 samples.

Results

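The mouse genes that make cholesterol and fatty acids, with the proteins that switch them on, were followed in 3 cell populations of injured liver. The list holds 37 genes, taken by symbol from the 20377 symbols of the deposited table: 5 SREBP regulators, 15 enzymes of the sterol branch, and 17 enzymes of the fatty acid branch, which here includes desaturation, elongation and glycerolipid assembly. All 37 had a row. Of these, 36 passed the filter on low values, at least 1 RPKM in at least 4 libraries, as did 12638 symbols in all. Hmgcs1, the synthase that makes HMG-CoA for the sterol branch, is listed at 0 in all 14 libraries, from a row placed on chr13_random in build mm9, and was not tested. Whether this 0 reflects absent messenger or a failure of counting could not be settled, so it is not read as absence of expression.

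RNA was sequenced from cells sorted from livers of chimeric C57BL/6 mice in which the mature hepatocytes were marked by red fluorescence. All groups, hepatocytes included, came from mice given DDC, a porphyrinogenic liver toxicant, at 0.1% for 5 to 8 weeks, so there is no uninjured group. Hepatocyte-derived ductal cells (5 libraries; donor cells and oval cells in the labels), here called hepatocyte-derived ducts, were sorted as positive for the ductal antigen MIC1-1C3 and for the red mTomato marker, negative for CD11b, CD26, CD31 and CD45, and low in side scatter. Cholangiocyte-derived ductal cells (5 libraries; host cells in the labels), here called cholangiocyte-derived ducts, met the same gate but lacked mTomato. Hepatocytes gave 4 libraries. The sources used here do not give the way the hepatocytes were marked, the genotype of the host, the ages of the mice or the hepatocyte gate.

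Sterol and fatty acid synthesis share a control system. SREBP proteins, made from Srebf1 and Srebf2, wait in the membrane of the endoplasmic reticulum bound to SCAP. INSIG proteins hold SCAP there while sterols are plentiful, and when sterols run low SCAP carries the SREBPs to the Golgi, where proteases free the part that enters the nucleus. SREBP-2 mainly drives genes of cholesterol synthesis and uptake, the main liver form from Srebf1 mainly drives fatty acid genes, and hepatocytes run both branches to supply lipoproteins and bile acids. Because SREBPs are activated by cleavage, messenger levels of Srebf1 and Srebf2 do not measure their activity.

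Levels are RPKM, reads normalized to transcript length and library size, so genes can be compared per length. Log2 fold changes are on the log2(RPKM + 1) scale, folds are ratios of mean RPKM, and a gene was called at a limma adjusted p under 0.05 over all tested genes. Estimated depth was 17200000 to 25600000 reads per library. The 8 hepatocyte markers (Alb, Ttr and others) summed to 6771 to 11925 RPKM in hepatocyte-derived ducts, 3498 to 4694 RPKM in cholangiocyte-derived ducts and 48145 to 67105 RPKM in hepatocytes, and the 8 biliary markers to 16786 to 19593 RPKM in hepatocyte-derived ducts, 20338 to 21942 RPKM in cholangiocyte-derived ducts and 624 to 1413 RPKM in hepatocytes. One hepatocyte library, 118, stood apart. Its 11 macrophage markers summed to 1481 RPKM, against 30.6 to 41.5 RPKM in the other 3 hepatocyte libraries, and its stellate cell markers to 140.5 RPKM, against 4.7 to 7.0 RPKM. Stellate cell markers were also high in libraries 118 and 220 of cholangiocyte-derived ducts, at 394 and 458 RPKM, against 32.4 to 75.6 RPKM in the other 3. Fewer cells of a type and less RNA per cell cannot be told apart in such bulk samples, and the part these other cells had in the results was not tested. The values of all libraries are listed in the order 219, 220, 225, 248 and 611 for hepatocyte-derived ducts, 118, 219, 220, 225 and 611 for cholangiocyte-derived ducts, and 118, 225, 248 and 611 for hepatocytes. The labels do not say that the libraries came from separate mice, so the p-values measure only the spread between these samples.

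The 14 tested sterol enzymes of the list all had negative log2 fold changes in both ductal populations against hepatocytes. All 14 tested enzymes fell in hepatocyte-derived ducts against hepatocytes. Over all tested genes 14.8% were called lower and 66.2% higher in this comparison. The libraries did not overlap those of hepatocytes for any of the 14, against 12.4% of all genes that were lower without overlap. In cholangiocyte-derived ducts 13 of the 14 fell, where 17.4% of all genes were called lower and 67.1% higher. The median log2 fold change of the 14 was -1.56 (from -2.18 to -0.68) in hepatocyte-derived ducts against hepatocytes and -1.34 (from -2.64 to -0.26) in cholangiocyte-derived ducts against hepatocytes, beside medians of 0.67 and 0.76 over all tested genes. Without libraries 118 and 220 of cholangiocyte-derived ducts and hepatocyte library 118 the counts were 14 and 13, the second with Mvd at an adjusted p of 0.04998. Rescaling the libraries by median ratios moved the medians of all genes to 0.01 and 0.05 and those of the 14 enzymes to -2.30 and -2.08. It also raised the share of all genes called lower. Of 12540 genes then tested, 4613 were called lower in hepatocyte-derived ducts and 4821 in cholangiocyte-derived ducts against hepatocytes. The 2 comparisons share the hepatocyte libraries.

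**Figure D1:**
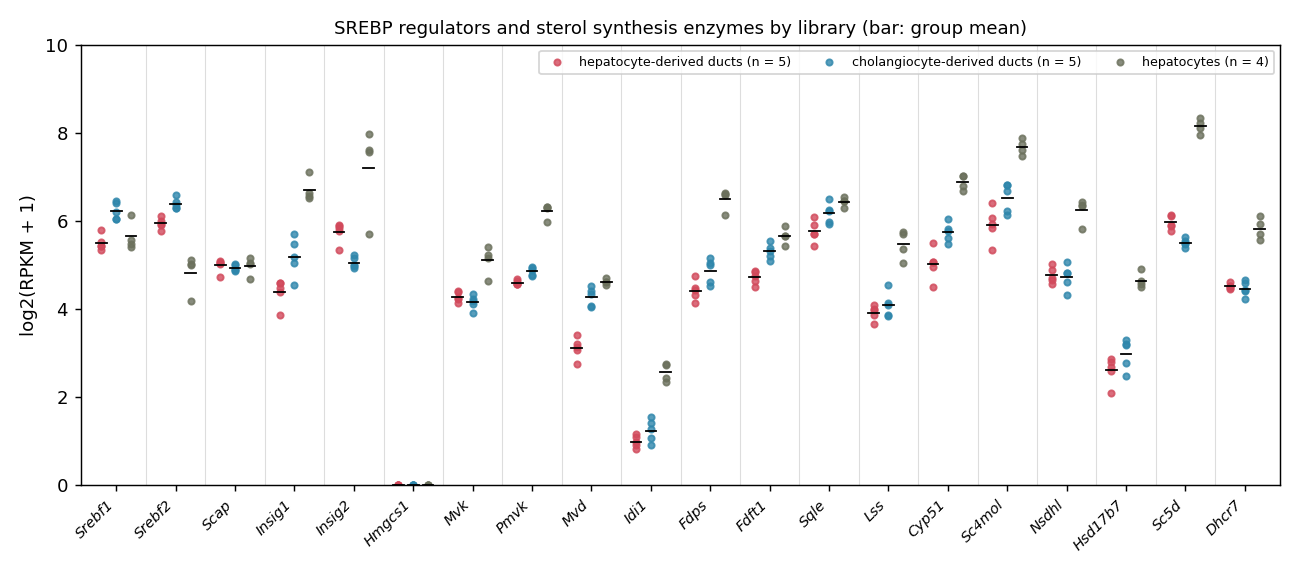
Level of the 5 regulators and the 15 sterol enzymes, in pathway order, in each library, on the log2(RPKM + 1) scale; each point is a library, colours are the 3 groups and bars are group means. The enzyme points of hepatocytes lie above those of hepatocyte-derived ducts for all 14 tested enzymes, Srebf2 shows the opposite order, and Hmgcs1 lies at 0 in every library.

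Promoters of the sterol enzymes were read from RefSeq (build GRCm38.p6) as the 250 bases before the start. A window was found for 29 of the 37 genes: 5 regulators, 12 sterol enzymes and 12 genes of the fatty acid branch. A CCAAT box (CCAAT, or ATTGG on the other strand), the letters bound by NF-Y, a partner of SREBPs at many target genes, was present in 12 of the 12 sterol windows, 4 of the 5 regulators and 7 of the 12 fatty acid genes, against 33.8% of all 32851 RefSeq windows and 37.5% of genes. The GC box GGGCGG (both strands), a motif of SP1, was in 11 of 12, 5 of 5 and 6 of 12, against 32.7% of windows and 35.4% of genes. The E box CACGTG was in 3 of 12, 2 of 5 and 1 of 12, against 6.02% of windows and 6.86% of genes. The sterol regulatory element, searched on both strands as TCACNCCAC, was in the window of Hmgcs1 alone, against 1.05% of windows and 1.22% of genes. Other spellings of this element were not searched. CCAAT matches shared bases with a GC box in Elovl1 and with each other in Fasn. The windows of 5 genes are shown because their messengers separate the groups below and they differ in the number and place of the box; the capitals mark CCAAT or ATTGG, and each window reads 5′ to 3′ on the strand of its gene, ending at the base before the start. A match describes letters only.
Insig1, chr5:28071162-28071411, plus strand: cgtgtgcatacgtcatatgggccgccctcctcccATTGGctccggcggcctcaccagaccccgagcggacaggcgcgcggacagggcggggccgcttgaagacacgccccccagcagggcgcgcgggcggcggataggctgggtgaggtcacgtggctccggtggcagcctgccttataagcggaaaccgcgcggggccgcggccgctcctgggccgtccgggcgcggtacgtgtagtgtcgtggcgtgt
Srebf2, chr15:82147019-82147268, plus strand: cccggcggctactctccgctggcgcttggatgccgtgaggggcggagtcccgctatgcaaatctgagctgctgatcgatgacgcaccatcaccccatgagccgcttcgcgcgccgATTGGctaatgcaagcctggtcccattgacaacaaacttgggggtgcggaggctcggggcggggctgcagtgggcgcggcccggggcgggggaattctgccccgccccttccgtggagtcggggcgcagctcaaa
Cyp51, chr5:4104698-4104947, minus strand: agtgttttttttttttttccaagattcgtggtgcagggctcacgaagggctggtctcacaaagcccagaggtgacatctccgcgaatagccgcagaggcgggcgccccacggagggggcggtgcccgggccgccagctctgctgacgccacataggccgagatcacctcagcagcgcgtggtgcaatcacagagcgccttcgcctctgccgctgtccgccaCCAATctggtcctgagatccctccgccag
Sc4mol, chr8:64733579-64733828, minus strand: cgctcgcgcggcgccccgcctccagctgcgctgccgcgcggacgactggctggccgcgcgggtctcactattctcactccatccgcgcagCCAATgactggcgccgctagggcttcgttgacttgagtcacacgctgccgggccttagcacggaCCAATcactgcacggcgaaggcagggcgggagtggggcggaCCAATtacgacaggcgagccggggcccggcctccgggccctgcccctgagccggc
Mvd, chr8:122443423-122443672, minus strand: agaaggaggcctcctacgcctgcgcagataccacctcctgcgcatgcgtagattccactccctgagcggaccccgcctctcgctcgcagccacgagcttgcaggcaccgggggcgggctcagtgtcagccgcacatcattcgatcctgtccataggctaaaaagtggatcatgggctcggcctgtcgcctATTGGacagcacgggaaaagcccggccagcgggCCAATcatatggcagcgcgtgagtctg
The box began 216 bases before the start in Insig1, 135 in Srebf2 and 29 in Cyp51. Sc4mol (called Msmo1 by RefSeq) had 3 boxes, at 160, 96 and 55 bases, and Mvd had 2, at 60 and 27 bases. Srebf2 and Insig1 carried the same letters, although the messengers of Srebf2 and Insig1 stood on opposite sides of hepatocytes.

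Of the 5 regulators, Srebf2 was higher and both Insig genes were lower in the ductal cells than in hepatocytes, and Scap was not called in any comparison. Srebf2 stood at 53.7, 59, 59.5, 63.1 and 67.9 RPKM in hepatocyte-derived ducts and at 84.6, 78, 77.5, 80.5 and 95.9 RPKM in cholangiocyte-derived ducts. In hepatocytes Srebf2 stood at 17, 31, 31.7 and 33.4 RPKM. Hepatocytes were lowest in every library, hepatocyte-derived duct libraries were in the middle and no groups overlapped. Srebf2 rose in hepatocyte-derived ducts (log2 fold change 1.11, SE 0.158, adjusted p = 1.30e-05) and in cholangiocyte-derived ducts (log2 fold change 1.57, SE 0.158, adjusted p = 3.00e-07). It was lower in hepatocyte-derived ducts than in cholangiocyte-derived ducts (log2 fold change -0.45, SE 0.149, adjusted p = 0.0285). Rescaled by median ratios, the first rise was smaller and was not called (0.33, adjusted p = 0.0925), nor was the difference between the ductal groups (-0.42, adjusted p = 0.0575). That difference was also not called with no filter on low values (adjusted p = 0.0507), without library 219, 220 or 225 of hepatocyte-derived ducts or without library 118 or 611 of cholangiocyte-derived ducts, at adjusted p of 0.0551 to 0.0722. Hepatocyte library 118 was the lowest hepatocyte library.

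Srebf1 stood at 45, 54.7, 41.9, 39.3 and 41.9 RPKM in hepatocyte-derived ducts and at 84.4, 64.8, 85.9, 64.4 and 73.1 RPKM in cholangiocyte-derived ducts. In hepatocytes Srebf1 stood at 46.6, 41.4, 43.3 and 69 RPKM. Cholangiocyte-derived duct libraries were higher than hepatocyte-derived ones without overlap, and 1 hepatocyte library, 611, reached into their range. Srebf1 was lower in hepatocyte-derived ducts than in cholangiocyte-derived ducts (log2 fold change -0.73, SE 0.14, adjusted p = 8.49e-04). It was higher in cholangiocyte-derived ducts than in hepatocytes before rescaling (log2 fold change 0.58, SE 0.149, adjusted p = 0.00216) but at -0.24 after it (adjusted p = 0.188). Between hepatocyte-derived ducts and hepatocytes it was not called (log2 fold change -0.14, SE 0.149, adjusted p = 0.383) before rescaling and was lower after it (-0.93, adjusted p = 1.43e-04). The single row does not tell the isoforms of Srebf1 apart. Scap is the escort protein. Scap stood at 32, 31.6, 32.4, 33.2 and 25.6 RPKM in hepatocyte-derived ducts and at 29, 30.8, 31.2, 27.9 and 28.7 RPKM in cholangiocyte-derived ducts. In hepatocytes Scap stood at 24.5, 32.2, 34.4 and 31.5 RPKM. The 3 groups overlapped. Relative to rescaled libraries Scap was lower in both ductal groups than in hepatocytes, by -0.76 in hepatocyte-derived ducts (adjusted p = 1.03e-05) and by -0.86 in cholangiocyte-derived ducts (adjusted p = 2.45e-06).

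Insig1, itself a target of SREBPs and the best known brake on SCAP, was lowest in hepatocyte-derived ducts. Insig1 stood at 13.6, 21.2, 23.1, 23.1 and 20 RPKM in hepatocyte-derived ducts and at 51.2, 22.4, 32, 43.1 and 35.2 RPKM in cholangiocyte-derived ducts. In hepatocytes Insig1 stood at 98.1, 90.2, 93.4 and 137 RPKM. Neither ductal group overlapped hepatocytes, while library 219 of cholangiocyte-derived ducts (22.4 RPKM) lay within the range of hepatocyte-derived ducts. Insig1 was 5.19-fold lower in hepatocyte-derived ducts than in hepatocytes (log2 fold change -2.32, SE 0.216, adjusted p = 1.57e-07) and 2.85-fold lower in cholangiocyte-derived ducts than in hepatocytes (log2 fold change -1.52, SE 0.216, adjusted p = 1.17e-05). It was also lower in hepatocyte-derived ducts than in cholangiocyte-derived ducts (log2 fold change -0.81, SE 0.204, adjusted p = 0.00594).

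Insig2, which also binds SCAP, had another order. Insig2 stood at 53.4, 39.3, 58.7, 55.9 and 57.7 RPKM in hepatocyte-derived ducts and at 29.3, 34.5, 30.2, 36.6 and 30.9 RPKM in cholangiocyte-derived ducts. In hepatocytes Insig2 stood at 51, 188, 193 and 248 RPKM. Hepatocyte library 118 fell within the range of hepatocyte-derived ducts, and the other 3 hepatocyte libraries were above all ductal ones. Insig2 fell in hepatocyte-derived ducts (log2 fold change -1.46, SE 0.336, adjusted p = 0.00101) and in cholangiocyte-derived ducts (log2 fold change -2.15, SE 0.336, adjusted p = 2.93e-05) against hepatocytes. Between hepatocyte-derived ducts and cholangiocyte-derived ducts it was not called (log2 fold change 0.69, SE 0.317, adjusted p = 0.11) although the libraries did not overlap, and was called without hepatocyte library 118 (0.69, adjusted p = 2.59e-04), which enters that test only through the shared estimate of the spread. It was also called in a fit of the ductal groups alone (0.69, adjusted p = 3.57e-04) and with library weights (0.80, adjusted p = 4.14e-05).

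The early sterol enzymes turn mevalonate into isoprenoid units. Mvk (mevalonate kinase) averaged 18.5 ± 1.55 RPKM in hepatocyte-derived ducts, 16.9 ± 1.95 RPKM in cholangiocyte-derived ducts and 34.1 ± 7.31 RPKM in hepatocytes (SD, n = 5, 5 and 4, as for all means here) and fell in both ductal groups (log2 fold changes -0.82 and -0.95). Pmvk is phosphomevalonate kinase. Pmvk stood at 22.8, 23.8, 22.6, 22.5 and 24.6 RPKM in hepatocyte-derived ducts and at 28.4, 25.7, 26.3, 29.4 and 30.1 RPKM in cholangiocyte-derived ducts. In hepatocytes Pmvk stood at 62.1, 78.8, 78.7 and 77.5 RPKM. The ductal groups stayed below hepatocytes and did not overlap each other. Pmvk fell in hepatocyte-derived ducts (log2 fold change -1.63, SE 0.0807, adjusted p = 2.94e-10) and in cholangiocyte-derived ducts (log2 fold change -1.37, SE 0.0807, adjusted p = 8.18e-10). It was slightly lower in hepatocyte-derived ducts than in cholangiocyte-derived ducts (log2 fold change -0.25, SE 0.0761, adjusted p = 0.0166), a call lost after rescaling (-0.22, adjusted p = 0.0512). Idi1, the isopentenyl diphosphate isomerase, was the least abundant enzyme of the branch, at 0.994 ± 0.181 RPKM in hepatocyte-derived ducts, 1.39 ± 0.418 RPKM in cholangiocyte-derived ducts and 4.95 ± 0.847 RPKM in hepatocytes, and fell in both ductal groups (log2 fold changes -1.57 and -1.32).

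Mvd, the mevalonate diphosphate decarboxylase, separated the ductal populations most within the branch. It stood at 5.68, 9.64, 7.44, 7.75 and 8.24 RPKM in hepatocyte-derived ducts, at 21.9, 15.8, 15.6, 19.1 and 20.3 RPKM in cholangiocyte-derived ducts and at 23.5, 22.2, 24.9 and 23.4 RPKM in hepatocytes. All cholangiocyte-derived duct libraries lay close below those of hepatocytes, and those of hepatocyte-derived ducts lay far below both. Mvd was 3.03-fold lower in hepatocyte-derived ducts than in hepatocytes (log2 fold change -1.50, SE 0.127, adjusted p = 5.88e-08) and 2.39-fold lower in hepatocyte-derived ducts than in cholangiocyte-derived ducts (log2 fold change -1.16, SE 0.12, adjusted p = 2.84e-06). The difference between cholangiocyte-derived ducts and hepatocytes was small (log2 fold change -0.34, SE 0.127, adjusted p = 0.0234) and was not called with the library number as a block (-0.25, adjusted p = 0.0763), nor without library 219 or 220 of cholangiocyte-derived ducts or library 248 of hepatocytes (adjusted p = 0.0588 to 0.0611).

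Fdps and Fdft1 join isoprenoid units into farnesyl diphosphate and squalene. Fdps stood at 16.7, 18.8, 21.1, 20.6 and 25.9 RPKM in hepatocyte-derived ducts and at 31.9, 23.6, 21.9, 34.5 and 30.9 RPKM in cholangiocyte-derived ducts. In hepatocytes Fdps stood at 97.1, 94.6, 98.7 and 69.3 RPKM. Hepatocytes lay above both ductal groups and the ductal groups overlapped. Fdps fell in hepatocyte-derived ducts (log2 fold change -2.07, SE 0.156, adjusted p = 1.67e-08) and in cholangiocyte-derived ducts (log2 fold change -1.63, SE 0.156, adjusted p = 1.63e-07). The lower level in hepatocyte-derived ducts than in cholangiocyte-derived ducts (log2 fold change -0.45, SE 0.147, adjusted p = 0.0279) was lost in turn without library 219 or 220 of hepatocyte-derived ducts or library 118, 225 or 611 of cholangiocyte-derived ducts, at adjusted p of 0.0626 to 0.0767. Fdft1, the squalene synthase, averaged 25.5 ± 2.68 RPKM in hepatocyte-derived ducts, 38.8 ± 4.82 RPKM in cholangiocyte-derived ducts and 49.6 ± 6.53 RPKM in hepatocytes, and fell in all 3 comparisons (log2 fold changes -0.93, -0.35 and, for hepatocyte-derived ducts against cholangiocyte-derived ducts, -0.59).

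Sqle and Lss close squalene into lanosterol. Sqle, the squalene epoxidase and a rate-limiting step, averaged 53.8 ± 9.42 RPKM in hepatocyte-derived ducts, 72.1 ± 12.1 RPKM in cholangiocyte-derived ducts and 85.8 ± 6.54 RPKM in hepatocytes. It fell in hepatocyte-derived ducts against hepatocytes (log2 fold change -0.68, SE 0.137, adjusted p = 3.54e-04) but was the enzyme not called in cholangiocyte-derived ducts (log2 fold change -0.26, SE 0.137, adjusted p = 0.0901), where it was called after rescaling (-1.09), with library weights (-0.39, adjusted p = 0.00385) and without library 611 of cholangiocyte-derived ducts (-0.34, adjusted p = 0.026). Sqle was lower in hepatocyte-derived ducts than in cholangiocyte-derived ducts (log2 fold change -0.42, SE 0.129, adjusted p = 0.0201), a call lost without library 219 of hepatocyte-derived ducts or 611 of cholangiocyte-derived ducts (adjusted p = 0.0568 and 0.0554). Lss, the lanosterol synthase, averaged 14.1 ± 1.66 RPKM in hepatocyte-derived ducts, 16.4 ± 3.65 RPKM in cholangiocyte-derived ducts and 44 ± 9.91 RPKM in hepatocytes, and fell in both ductal groups (log2 fold changes -1.55 and -1.37).

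Cyp51 and Sc4mol remove methyl groups from lanosterol. Cyp51 stood at 21.6, 32.7, 29.7, 32.3 and 43.9 RPKM in hepatocyte-derived ducts and at 65.3, 43.4, 47.6, 53.5 and 55.1 RPKM in cholangiocyte-derived ducts. In hepatocytes Cyp51 stood at 110.3, 129, 128 and 101 RPKM. Hepatocytes were highest in every library, and only library 611 of hepatocyte-derived ducts (43.9 RPKM) reached the lowest library of cholangiocyte-derived ducts. Cyp51 fell in hepatocyte-derived ducts (log2 fold change -1.86, SE 0.166, adjusted p = 1.00e-07) and in cholangiocyte-derived ducts (log2 fold change -1.13, SE 0.166, adjusted p = 1.53e-05) against hepatocytes. It was lower in hepatocyte-derived ducts than in cholangiocyte-derived ducts (log2 fold change -0.73, SE 0.156, adjusted p = 0.00194). Sc4mol stood at 39.7, 66.1, 56.2, 59.7 and 83.2 RPKM in hepatocyte-derived ducts and at 111, 73.6, 68.7, 101 and 112 RPKM in cholangiocyte-derived ducts. In hepatocytes Sc4mol stood at 233, 214, 195 and 177 RPKM. The groups had the same order, with library 611 of hepatocyte-derived ducts again within the range of cholangiocyte-derived ducts. Sc4mol fell in hepatocyte-derived ducts (log2 fold change -1.76, SE 0.196, adjusted p = 1.07e-06) and in cholangiocyte-derived ducts (log2 fold change -1.15, SE 0.196, adjusted p = 7.01e-05) against hepatocytes. It was lower in hepatocyte-derived ducts than in cholangiocyte-derived ducts (log2 fold change -0.61, SE 0.185, adjusted p = 0.0176).

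Later steps showed 1 enzyme with the reverse order of the ductal groups. Hsd17b7 is the sterol ketoreductase. Hsd17b7 stood at 3.25, 6.3, 5.01, 5.38 and 5.98 RPKM in hepatocyte-derived ducts and at 8.02, 4.53, 5.81, 8.2 and 8.89 RPKM in cholangiocyte-derived ducts. In hepatocytes Hsd17b7 stood at 22.6, 28.9, 23.7 and 21.4 RPKM. Both ductal groups lay below hepatocytes (log2 fold change -2.04, SE 0.186, adjusted p = 1.26e-07 in hepatocyte-derived ducts and log2 fold change -1.66, SE 0.186, adjusted p = 9.03e-07 in cholangiocyte-derived ducts). The difference between hepatocyte-derived ducts and cholangiocyte-derived ducts (log2 fold change -0.38, SE 0.175, adjusted p = 0.111) was called with the library number as a block (-0.37, adjusted p = 0.0439) and without library 219 of cholangiocyte-derived ducts (-0.51, adjusted p = 0.0242). Sc5d is the sterol desaturase. Sc5d stood at 58.1, 69.2, 59, 53.9 and 68.6 RPKM in hepatocyte-derived ducts and at 44.4, 43.6, 40.7, 48.6 and 45.6 RPKM in cholangiocyte-derived ducts. In hepatocytes Sc5d stood at 245, 273, 299 and 319.7 RPKM. All hepatocyte-derived duct libraries were above all cholangiocyte-derived duct libraries, and hepatocytes were above both. Sc5d was 4.6-fold lower in hepatocyte-derived ducts than in hepatocytes (log2 fold change -2.18, SE 0.0968, adjusted p = 1.02e-10) and 6.37-fold lower in cholangiocyte-derived ducts than in hepatocytes (log2 fold change -2.64, SE 0.0968, adjusted p = 7.83e-12). It was higher in hepatocyte-derived ducts than in cholangiocyte-derived ducts (log2 fold change 0.46, SE 0.0913, adjusted p = 0.00112). Nsdhl, a sterol dehydrogenase, and Dhcr7, the last reductase, averaged 26.4 ± 3.46 and 21.9 ± 0.974 RPKM in hepatocyte-derived ducts, 25.9 ± 5 and 21.1 ± 2.53 RPKM in cholangiocyte-derived ducts, and 75.7 ± 13.5 and 56.3 ± 9.63 RPKM in hepatocytes. Both fell in each ductal group against hepatocytes and neither was called between the ductal groups (log2 fold changes 0.04 and 0.05).

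Between the ductal populations, 7 of the 14 sterol enzymes were lower in hepatocyte-derived ducts than in cholangiocyte-derived ducts (Mvd, Cyp51, Sc4mol, Fdft1, Fdps, Sqle and Pmvk), Sc5d was higher and 6 were not called. Over all tested genes 21% were called lower and 15.1% higher in this comparison. The median log2 fold change of the 14 was -0.32, beside -0.03 over all genes. Library 219 of hepatocyte-derived ducts was lowest in its group for 11 of the 14 enzymes and library 220 of cholangiocyte-derived ducts for 10. The count of lower enzymes was 5 without library 219 of hepatocyte-derived ducts, 5 without library 611 of cholangiocyte-derived ducts and 8 with the library number as a block. Macrophage markers were also lowest in library 219 within each ductal group, at 25.5 RPKM in hepatocyte-derived ducts and 50.1 RPKM in cholangiocyte-derived ducts, and their part in the result was not tested.

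Mbtps1 and Mbtps2, the Golgi proteases that cut SREBPs, rose in hepatocyte-derived ducts (log2 fold changes 1.08 and 0.76) and in cholangiocyte-derived ducts (1.09 and 0.70) against hepatocytes, sizes to be read beside the medians of 0.67 and 0.76 over all genes.

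**Figure D2:**
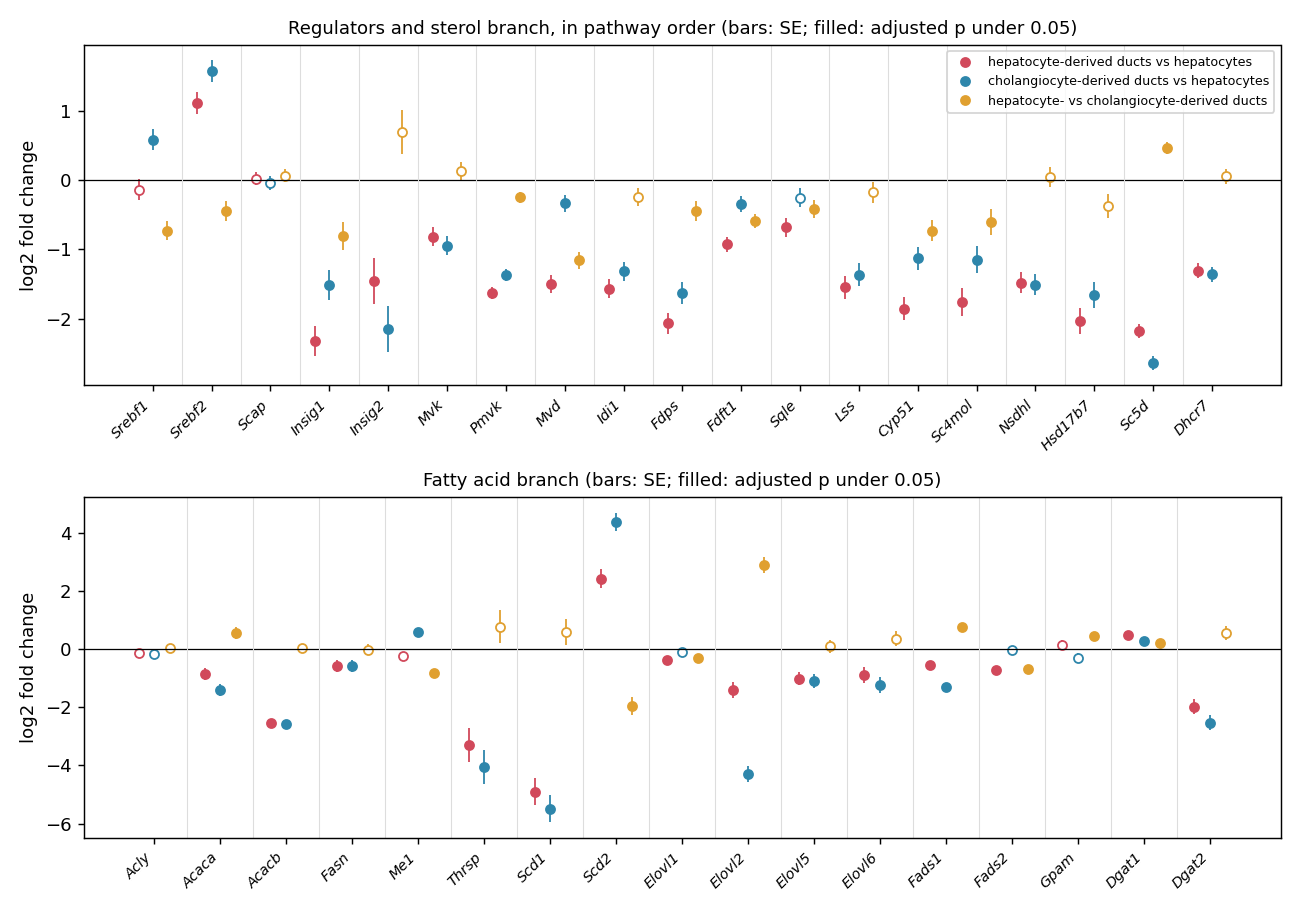
Log2 fold change on the log2(RPKM + 1) scale of the 36 tested genes in the 3 comparisons, regulators and sterol enzymes above and the fatty acid branch below; error bars are the limma SE and filled points were called at an adjusted p under 0.05. The sterol enzymes lie below 0 in both comparisons with hepatocytes, while the fatty acid branch runs from -5.49 for Scd1 to 4.37 for Scd2.

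The fatty acid branch was less uniform. Of its 17 genes, 12 fell and 2 rose in hepatocyte-derived ducts against hepatocytes, 10 fell and 3 rose in cholangiocyte-derived ducts against hepatocytes, and 4 were lower and 5 higher in hepatocyte-derived ducts than in cholangiocyte-derived ducts. Over all tested genes 14.8% were called lower and 66.2% higher in the first of these comparisons, 17.4% and 67.1% in the second, and 21% and 15.1% in the third, so that the count of 4 lower genes between the ductal groups is near the share over all genes. The shares against hepatocytes depend on the scaling, as given for the sterol branch. The median log2 fold changes were -0.73, -1.11 and 0.22. Against hepatocytes the genes that rose were Scd2 and Dgat1 in hepatocyte-derived ducts, and Scd2, Dgat1 and Me1 in cholangiocyte-derived ducts; only Scd2 remained higher after rescaling by median ratios, where Dgat1 turned to -0.29 in hepatocyte-derived ducts and -0.54 in cholangiocyte-derived ducts and Me1 to -0.24 in cholangiocyte-derived ducts. Hepatocyte library 118 was the lowest hepatocyte library for 11 of the 17 genes; without it 13 fell in hepatocyte-derived ducts and 12 in cholangiocyte-derived ducts.

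**Figure D3:**
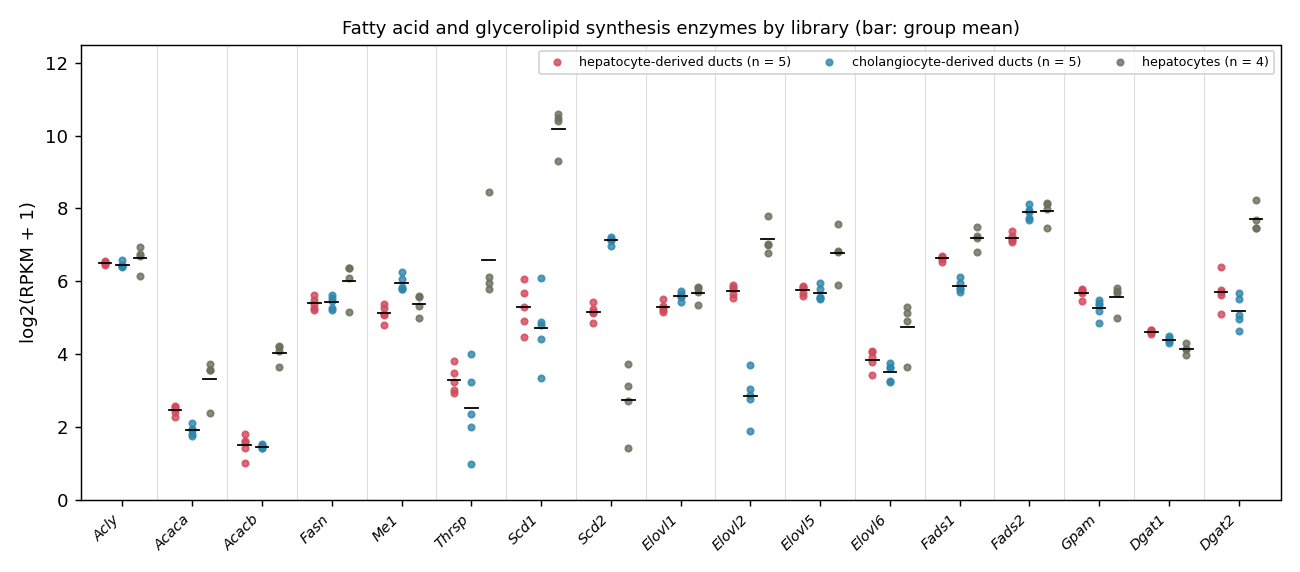
Level of the 17 genes of the fatty acid branch in each library on the log2(RPKM + 1) scale; each point is a library, colours are the 3 groups and bars are group means. Scd1 and Scd2 have opposite orders of the groups, Elovl2 has 3 separate levels, and Acly is at a similar level in all groups.

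Acly, which makes cytosolic acetyl-CoA from citrate, averaged 90.00 ± 2.8 RPKM in hepatocyte-derived ducts, 87 ± 4.6 RPKM in cholangiocyte-derived ducts and 101 ± 22.2 RPKM in hepatocytes. It was not called in any comparison before rescaling, with log2 fold changes of -0.13 in hepatocyte-derived ducts and -0.18 in cholangiocyte-derived ducts against hepatocytes. It was lower in both ductal groups without hepatocyte library 118 (-0.30 and -0.35, adjusted p = 0.00115 and 3.1e-04), after rescaling by median ratios (-0.93 and -1.01, adjusted p = 1.35e-05 and 4.5e-06) and when libraries were weighted (-0.33 and -0.39, adjusted p = 1.62e-04 and 4.52e-05). Fasn, the fatty acid synthase, averaged 41.3 ± 4.85 RPKM in hepatocyte-derived ducts, 42 ± 5.19 RPKM in cholangiocyte-derived ducts and 66.2 ± 22.2 RPKM in hepatocytes. It fell in hepatocyte-derived ducts (log2 fold change -0.60, SE 0.205, adjusted p = 0.0145) and in cholangiocyte-derived ducts (log2 fold change -0.58, SE 0.205, adjusted p = 0.0174), calls that were each lost without hepatocyte library 248 or 611 (adjusted p = 0.056 to 0.0663) and, for cholangiocyte-derived ducts, with the library number as a block (-0.44, adjusted p = 0.0643). Me1, the malic enzyme that supplies NADPH, averaged 34.2 ± 5.33 RPKM in hepatocyte-derived ducts, 61.1 ± 8.76 RPKM in cholangiocyte-derived ducts and 40.9 ± 7.98 RPKM in hepatocytes and was lower in hepatocyte-derived ducts than in cholangiocyte-derived ducts (log2 fold change -0.82, SE 0.14, adjusted p = 2.97e-04). Against hepatocytes Me1 was not called in hepatocyte-derived ducts (-0.24) but was lower there after rescaling (-1.03), after quantile normalization (-0.50), with library weights (-0.44) and without hepatocyte library 611 (-0.37, adjusted p = 0.0257).

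The acetyl-CoA carboxylases make malonyl-CoA, Acaca for synthesis in the cytosol and Acacb at mitochondria, where malonyl-CoA restrains fatty acid oxidation. Acaca stood at 4.61, 3.83, 4.94, 4.3 and 4.88 RPKM in hepatocyte-derived ducts and at 2.39, 3.29, 2.51, 2.76 and 2.82 RPKM in cholangiocyte-derived ducts. In hepatocytes Acaca stood at 4.25, 10.8, 12.2 and 10.8 RPKM. Hepatocyte library 118 fell within the range of hepatocyte-derived ducts and the other hepatocyte libraries were highest. Acaca fell in hepatocyte-derived ducts (log2 fold change -0.85, SE 0.21, adjusted p = 0.00179) and in cholangiocyte-derived ducts (log2 fold change -1.41, SE 0.21, adjusted p = 1.92e-05). Its higher level in hepatocyte-derived ducts than in cholangiocyte-derived ducts (log2 fold change 0.55, SE 0.198, adjusted p = 0.0414) was not called with the library number as a block (0.40, adjusted p = 0.0709), with a pseudocount of 5 (0.29, adjusted p = 0.086), with no filter on low values (adjusted p = 0.0761) or after rescaling (0.56, adjusted p = 0.0501) and was lost when any of 8 ductal libraries was left out (adjusted p = 0.0638 to 0.0875). Acacb stood at 2.52, 2.05, 2.02, 1.69 and 1.02 RPKM in hepatocyte-derived ducts and at 1.82, 1.65, 1.88, 1.76 and 1.65 RPKM in cholangiocyte-derived ducts. In hepatocytes Acacb stood at 11.5, 17.2, 17.7 and 16.1 RPKM. Hepatocytes were highest in every library and the ductal groups overlapped. Acacb was 8.4-fold lower in hepatocyte-derived ducts (log2 fold change -2.55, SE 0.15, adjusted p = 1.54e-09) and 8.92-fold lower in cholangiocyte-derived ducts (log2 fold change -2.58, SE 0.15, adjusted p = 7.25e-10) than in hepatocytes.

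Thrsp, a nuclear protein induced with lipogenesis in liver and fat, rested on 1 library for its size. Thrsp stood at 10.1, 12.9, 8.31, 7 and 6.66 RPKM in hepatocyte-derived ducts and at 15, 2.99, 8.34, 4.11 and 0.99 RPKM in cholangiocyte-derived ducts. In hepatocytes Thrsp stood at 350.4, 60.6, 68.7 and 54.1 RPKM. Hepatocyte library 118 was far above the other 3, and all hepatocyte libraries were above all ductal ones. Thrsp was 14.8-fold lower in hepatocyte-derived ducts (log2 fold change -3.29, SE 0.588, adjusted p = 1.19e-04) and 21.2-fold lower in cholangiocyte-derived ducts (log2 fold change -4.06, SE 0.588, adjusted p = 1.37e-05) than in hepatocytes. Without hepatocyte library 118 the folds were 6.78 and 9.73, and without library 118 of cholangiocyte-derived ducts the second was 32.5. Of the adipocyte markers, Adipoq, Plin1, Cfd, Lep and Retn were listed at 0 in hepatocyte library 118. Fabp4, which other cells also make, stood there at 27.6 RPKM, against 1.63 to 3.78 RPKM in the other 3 hepatocyte libraries. The part of other cells in the Thrsp level of that library was not tested. Thrsp was not called between the ductal groups (log2 fold change 0.77, SE 0.554, adjusted p = 0.314) and was called with the library number as a block (1.23, adjusted p = 9.52e-04).

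Stearoyl-CoA desaturases make monounsaturated fatty acids, with Scd1 the main form of mouse liver and Scd2 known from brain and developing tissues. Scd1 stood at 21, 29.1, 66, 50.4 and 38.1 RPKM in hepatocyte-derived ducts and at 28.4, 9.15, 26.6, 66.9 and 20.3 RPKM in cholangiocyte-derived ducts. In hepatocytes Scd1 stood at 626, 1429, 1539 and 1352 RPKM. Each hepatocyte library was above every ductal library by a wide margin, and the ductal groups overlapped. Scd1 was 30.2-fold lower in hepatocyte-derived ducts (log2 fold change -4.91, SE 0.464, adjusted p = 1.87e-07) and 40.8-fold lower in cholangiocyte-derived ducts (log2 fold change -5.49, SE 0.464, adjusted p = 4.07e-08) than in hepatocytes. The sums of the 8 hepatocyte markers, given above, moved the same way, and their part in the remaining Scd1 level of the ductal cells was not tested.

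Scd2 stood at 27.9, 34.3, 34.9, 36.4 and 42.3 RPKM in hepatocyte-derived ducts and at 139.6, 124, 147, 142 and 139.9 RPKM in cholangiocyte-derived ducts. In hepatocytes Scd2 stood at 5.52, 7.72, 12.2 and 1.69 RPKM. The 3 groups did not overlap, with hepatocytes lowest, hepatocyte-derived ducts in the middle and cholangiocyte-derived ducts highest. Scd2 was 5.18-fold higher in hepatocyte-derived ducts (log2 fold change 2.42, SE 0.318, adjusted p = 5.95e-06) and 20.4-fold higher in cholangiocyte-derived ducts (log2 fold change 4.37, SE 0.318, adjusted p = 7.83e-09) than in hepatocytes. It was 3.93-fold lower in hepatocyte-derived ducts than in cholangiocyte-derived ducts (log2 fold change -1.96, SE 0.3, adjusted p = 1.21e-04). Both genes lie on chromosome 19, in mm9 at 44468940 to 44482199 for Scd1 and 44368166 to 44381352 for Scd2, with starts 114.0 kb apart on opposite strands. They are close paralogs and the treatment of reads that match both is not given, so the low Scd2 values of hepatocytes, beside the far higher Scd1 values of the same libraries, are uncertain.

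Elovl2 and the Fads genes make long polyunsaturated fatty acids. Elovl2 stood at 54.5, 58.7, 56, 49.6 and 45.5 RPKM in hepatocyte-derived ducts and at 6.32, 12, 5.75, 7.26 and 2.71 RPKM in cholangiocyte-derived ducts. In hepatocytes Elovl2 stood at 109, 130.1, 127 and 220.3 RPKM. The 3 groups did not overlap: hepatocytes were highest, hepatocyte-derived ducts intermediate and cholangiocyte-derived ducts lowest. Elovl2 was 2.77-fold lower in hepatocyte-derived ducts (log2 fold change -1.41, SE 0.28, adjusted p = 3.18e-04) and 21.5-fold lower in cholangiocyte-derived ducts (log2 fold change -4.30, SE 0.28, adjusted p = 2.42e-09) than in hepatocytes. It was 7.77-fold higher in hepatocyte-derived ducts than in cholangiocyte-derived ducts (log2 fold change 2.89, SE 0.264, adjusted p = 8.94e-07). Hepatocyte markers had the same order of groups in their summed level. Of the 8 markers, 5 were called higher in hepatocyte-derived ducts than in cholangiocyte-derived ducts and 3 were not called. Among them Cyp2e1 averaged 17.8 RPKM in hepatocyte-derived ducts and 39.6 RPKM in cholangiocyte-derived ducts. The part of hepatocyte messengers in the Elovl2 levels was not tested.

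Fads1 stood at 98.3, 99.8, 103, 96.4 and 91.2 RPKM in hepatocyte-derived ducts and at 51.6, 68, 54.3, 54.9 and 60.6 RPKM in cholangiocyte-derived ducts. In hepatocytes Fads1 stood at 112, 144, 149.6 and 179 RPKM. The 3 groups did not overlap, with hepatocyte-derived ducts in the middle, cholangiocyte-derived ducts lowest and hepatocytes highest. Fads1 fell in hepatocyte-derived ducts (log2 fold change -0.55, SE 0.117, adjusted p = 5.29e-04) and in cholangiocyte-derived ducts (log2 fold change -1.31, SE 0.117, adjusted p = 8.04e-08). It was higher in hepatocyte-derived ducts than in cholangiocyte-derived ducts (log2 fold change 0.75, SE 0.111, adjusted p = 8.33e-05). Fads2 stood at 152, 164, 139, 143 and 134 RPKM in hepatocyte-derived ducts and at 214, 239.7, 249.6, 206 and 277 RPKM in cholangiocyte-derived ducts. In hepatocytes Fads2 stood at 177, 252, 277 and 281 RPKM. Here hepatocyte-derived ducts were lowest, without overlap with either group, and cholangiocyte-derived ducts overlapped hepatocytes. Fads2 fell in hepatocyte-derived ducts against hepatocytes (log2 fold change -0.73, SE 0.134, adjusted p = 1.50e-04) and against cholangiocyte-derived ducts (log2 fold change -0.69, SE 0.126, adjusted p = 5.49e-04). It was not called in cholangiocyte-derived ducts against hepatocytes (log2 fold change -0.04, SE 0.134, adjusted p = 0.785), where quantile normalization gave 0.53 and rescaling -0.88. Under quantile normalization the falls of Fads1 and Fads2 in hepatocyte-derived ducts against hepatocytes were not called (adjusted p = 0.0797 and 0.139). Fads1 and Fads2 also lie on chromosome 19, with starts 81.4 kb apart on opposite strands.

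The other elongases moved less. Elovl1 elongates saturated and monounsaturated chains. Elovl1 stood at 38.6, 44.6, 36.2, 34.9 and 37.4 RPKM in hepatocyte-derived ducts and at 48.9, 46.1, 47.2, 52.2 and 42.3 RPKM in cholangiocyte-derived ducts. In hepatocytes Elovl1 stood at 56.5, 51.4, 55.7 and 40.01 RPKM. All groups lay close together and overlapped in part. Elovl1 was lower in hepatocyte-derived ducts than in hepatocytes (log2 fold change -0.39, SE 0.105, adjusted p = 0.0032) and than in cholangiocyte-derived ducts (log2 fold change -0.30, SE 0.0992, adjusted p = 0.0289), the second call being lost when any of 7 ductal libraries was left out (adjusted p = 0.0505 to 0.0735). Elovl5, which elongates polyunsaturated chains, averaged 53.2 ± 4.1 RPKM in hepatocyte-derived ducts, 50.2 ± 6.91 RPKM in cholangiocyte-derived ducts and 118 ± 54.5 RPKM in hepatocytes. Elovl6, which elongates palmitate, averaged 13.6 ± 2.44 RPKM in hepatocyte-derived ducts, 10.5 ± 1.84 RPKM in cholangiocyte-derived ducts and 28.3 ± 11.8 RPKM in hepatocytes. Both fell in hepatocyte-derived ducts (log2 fold changes -1.02 and -0.90) and in cholangiocyte-derived ducts (-1.11 and -1.24) against hepatocytes, and neither was called between the ductal groups.

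Glycerolipid assembly ends with the diacylglycerol acyltransferases Dgat1 and Dgat2, which make triglyceride and are not related in sequence. Dgat2 stood at 51.2, 82.6, 52.8, 48.5 and 33.1 RPKM in hepatocyte-derived ducts and at 49.95, 32.9, 44.5, 30.2 and 23.8 RPKM in cholangiocyte-derived ducts. In hepatocytes Dgat2 stood at 300.2, 174, 174 and 205 RPKM. Hepatocytes were highest in every library and the ductal groups overlapped. Dgat2 was 3.98-fold lower in hepatocyte-derived ducts (log2 fold change -1.99, SE 0.257, adjusted p = 4.76e-06) and 5.88-fold lower in cholangiocyte-derived ducts (log2 fold change -2.53, SE 0.257, adjusted p = 3.04e-07) than in hepatocytes. Its difference between hepatocyte-derived ducts and cholangiocyte-derived ducts (log2 fold change 0.54, SE 0.242, adjusted p = 0.1) was called with the library number as a block (0.69, adjusted p = 0.00192) and without library 611 of hepatocyte-derived ducts (0.70, adjusted p = 0.0336).

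Dgat1 stood at 24.2, 24.5, 22.3, 23.3 and 23.4 RPKM in hepatocyte-derived ducts and at 19.6, 20.9, 19.8, 21.5 and 18.7 RPKM in cholangiocyte-derived ducts. In hepatocytes Dgat1 stood at 18.6, 16.5, 16.8 and 14.7 RPKM. The groups did not overlap, with hepatocyte-derived ducts highest and hepatocytes lowest. Dgat1 rose in hepatocyte-derived ducts (log2 fold change 0.48, SE 0.0717, adjusted p = 2.10e-05) and in cholangiocyte-derived ducts (log2 fold change 0.26, SE 0.0717, adjusted p = 0.00341) before rescaling and had the opposite sign after it and under quantile normalization. It was higher in hepatocyte-derived ducts than in cholangiocyte-derived ducts (log2 fold change 0.22, SE 0.0676, adjusted p = 0.0203), a call lost without library 611 of cholangiocyte-derived ducts (adjusted p = 0.0557). Gpam, the first acyltransferase of glycerolipid synthesis, averaged 50.6 ± 4.27 RPKM in hepatocyte-derived ducts, 37.7 ± 6.33 RPKM in cholangiocyte-derived ducts and 47.2 ± 11.4 RPKM in hepatocytes. It was called higher in hepatocyte-derived ducts than in cholangiocyte-derived ducts (log2 fold change 0.43, SE 0.156, adjusted p = 0.0467), not with the library number as a block (0.31, adjusted p = 0.133), and lost that call without any of 8 single libraries (adjusted p = 0.0546 to 0.121). Against hepatocytes Gpam was not called in cholangiocyte-derived ducts (-0.30) but was lower there after rescaling (-1.12), after quantile normalization (-0.53), with library weights (-0.45) and without hepatocyte library 118 (-0.49, adjusted p = 0.00217).

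For 8 gene pairs the log2 ratio of RPKM + 1 was compared by an exact two-sided permutation test, adjusted over 24 tests, where the smallest possible p is 0.00794. In hepatocyte-derived ducts against hepatocytes 6 of 8 ratios differed, in cholangiocyte-derived ducts against hepatocytes 6, and in hepatocyte-derived ducts against cholangiocyte-derived ducts 5. Library scaling enters such a ratio only through the added 1; after rescaling by median ratios, an alternative chosen after seeing the data, the counts were 5, 6 and 5. Against hepatocytes the widest shift was that of Scd2 to Scd1, at -0.12 ± 0.543 in hepatocyte-derived ducts, 2.42 ± 0.917 in cholangiocyte-derived ducts and -7.45 ± 1.07 in hepatocytes, without overlap in any comparison (exact p = 0.00794, adjusted p = 0.0127 each). Scd2 and Scd1 were thus near equal per length in hepatocyte-derived ducts, while Scd2 led in cholangiocyte-derived ducts and Scd1 in hepatocytes.

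Between the ductal groups the shift of Elovl1 to Elovl2 was wider, at -3.19 against -2.53 for Scd2 to Scd1. Elovl1 to Elovl2 stood at -0.45 ± 0.127 in hepatocyte-derived ducts, 2.74 ± 0.6 in cholangiocyte-derived ducts and -1.47 ± 0.664 in hepatocytes, and Fads1 to Fads2 at -0.57 ± 0.107 in hepatocyte-derived ducts, -2.02 ± 0.169 in cholangiocyte-derived ducts and -0.75 ± 0.116 in hepatocytes. The Fads ratio of hepatocyte-derived ducts did not differ from that of hepatocytes beyond the threshold (difference 0.18, exact p = 0.0556, adjusted p = 0.0741), except without library 220 of hepatocyte-derived ducts (0.21, adjusted p = 0.0381), and differed from that of cholangiocyte-derived ducts by 1.44 (exact p = 0.00794, adjusted p = 0.0127). Srebf1 to Srebf2 was lower in both ductal groups, at -0.44 ± 0.256 in hepatocyte-derived ducts and -0.16 ± 0.227 in cholangiocyte-derived ducts, than in hepatocytes, at 0.82 ± 0.482. Insig1 to Insig2 was -1.36 ± 0.38 in hepatocyte-derived ducts and 0.14 ± 0.495 in cholangiocyte-derived ducts, without overlap, and -0.50 ± 0.96 in hepatocytes, where library 118 stood at 0.93. The difference between hepatocyte-derived ducts and hepatocytes (-0.86, exact p = 0.0317, adjusted p = 0.0448) was -0.38 without that library (adjusted p = 0.163). It was also not called without library 219, 225, 248 or 611 of hepatocyte-derived ducts or library 225, 248 or 611 of hepatocytes (adjusted p = 0.0504 to 0.121), with a pseudocount of 5 (adjusted p = 0.0952) or after rescaling (-0.85, adjusted p = 0.056). The difference between cholangiocyte-derived ducts and hepatocytes (0.64, adjusted p = 0.272) was called without hepatocyte library 118 (1.11, adjusted p = 0.0268). Acaca to Acacb differed in all comparisons, at 0.97 ± 0.357 in hepatocyte-derived ducts, 0.44 ± 0.178 in cholangiocyte-derived ducts and -0.73 ± 0.353 in hepatocytes. The ductal groups overlapped in it, and their difference (0.52, adjusted p = 0.0357) was lost without library 118, 220, 225 or 611 of cholangiocyte-derived ducts (adjusted p = 0.0635 to 0.0672). Dgat1 to Dgat2 was -1.10 ± 0.44 in hepatocyte-derived ducts and -0.77 ± 0.424 in cholangiocyte-derived ducts, both above -3.57 ± 0.311 in hepatocytes. Elovl5 to Elovl6 passed in no comparison (adjusted p = 0.11 to 0.444), except between the ductal groups without library 611 of cholangiocyte-derived ducts (-0.35, adjusted p = 0.0429). The permutation tests took no account of library numbers: the 4 pairs of same-numbered ductal libraries cannot give an exact sign-flip p below 0.125. Elovl5 to Elovl6 and Dgat1 to Dgat2 were lower in hepatocyte-derived ducts in 4 of the 4 pairs. So were Insig1 to Insig2, Scd2 to Scd1 and Elovl1 to Elovl2. Srebf1 to Srebf2 was lower in 3 of the 4 pairs, Acaca to Acacb in 1 and Fads1 to Fads2 in 0. In the pair numbered 611, Elovl5 to Elovl6 stood at 1.77 in hepatocyte-derived ducts against 1.79 in cholangiocyte-derived ducts.

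**Figure D4:**
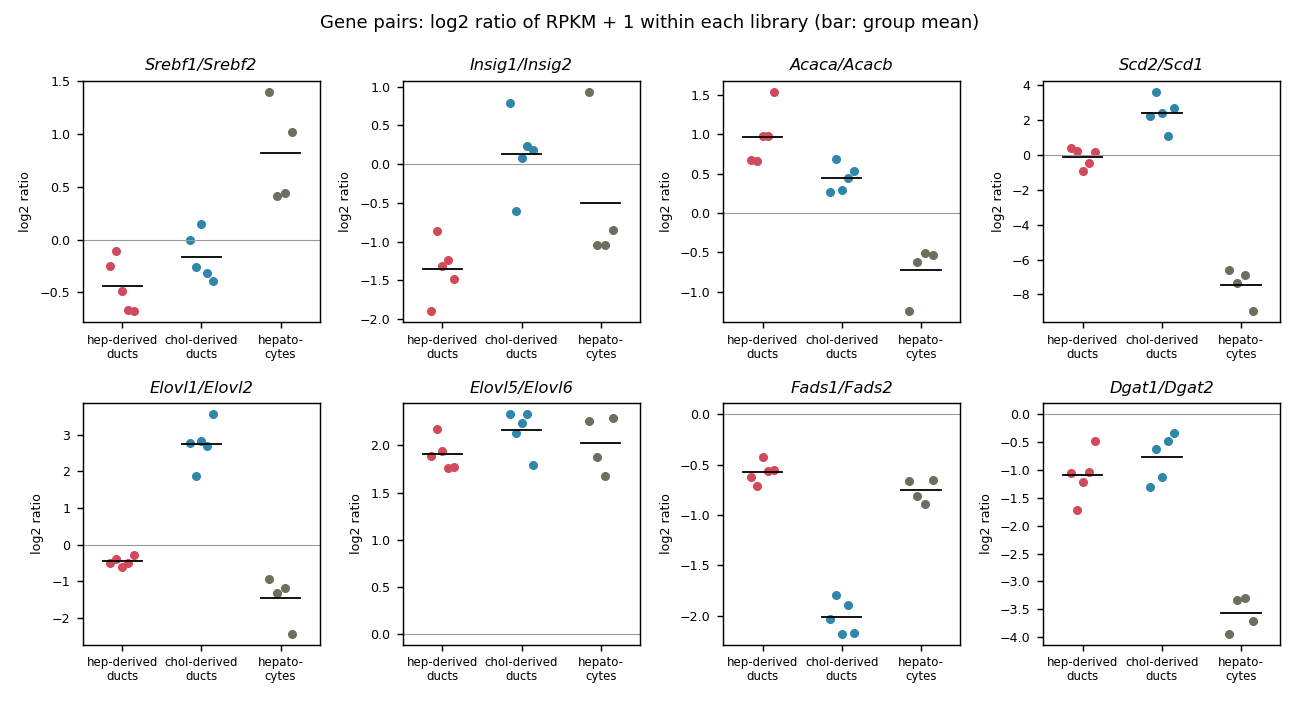
Log2 ratio of RPKM + 1 of 8 gene pairs within each library; each point is a library, bars are group means and the grey line marks equal levels. The Scd2 to Scd1 ratio separates all 3 groups, at means of -0.12, 2.42 and -7.45 from left to right, and the Fads1 to Fads2 ratio sets cholangiocyte-derived ducts apart.

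Averaged per library, both branches had lower levels in the ductal groups, and the branches differed in which ductal group had the lower mean. The sterol levels of the ductal libraries overlapped, from 4.08 to 4.52 in hepatocyte-derived ducts and from 4.39 to 4.83 in cholangiocyte-derived ducts. The mean log2(RPKM + 1) of the 14 sterol enzymes was 4.33 ± 0.166 in hepatocyte-derived ducts, 4.64 ± 0.195 in cholangiocyte-derived ducts and 5.85 ± 0.124 in hepatocytes, and that of the 17 fatty acid genes was 5.01 ± 0.0557 in hepatocyte-derived ducts, 4.81 ± 0.105 in cholangiocyte-derived ducts and 5.98 ± 0.193 in hepatocytes (SD). Sterol minus fatty acid level was -0.68 ± 0.178 in hepatocyte-derived ducts (from -0.89 to -0.42), -0.17 ± 0.236 in cholangiocyte-derived ducts (from -0.45 to 0.18) and -0.13 ± 0.188 in hepatocytes (from -0.33 to 0.11). Library 219 of hepatocyte-derived ducts and library 220 of cholangiocyte-derived ducts were the lowest of their groups on the sterol axis, and 1 library of hepatocyte-derived ducts overlapped cholangiocyte-derived ducts in the difference. No test was made of these averages, since the genes were chosen with results known.

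**Figure D5:**
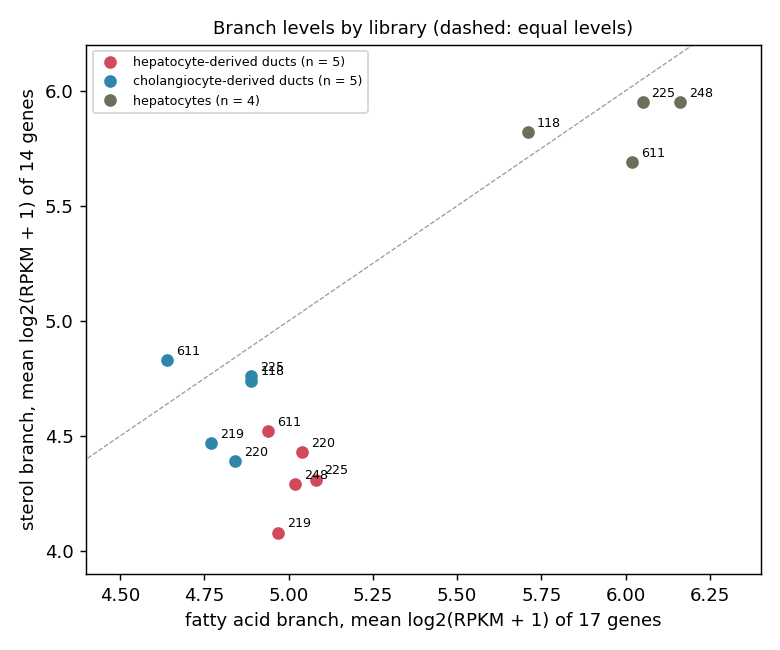
Mean log2(RPKM + 1) of the sterol branch (14 genes, vertical) against the fatty acid branch (17 genes, horizontal) in each library, labelled by library number; the dashed line marks equal levels. Hepatocytes lie at 5.69 to 5.95 on the sterol axis, and the hepatocyte-derived duct libraries lie below the line by 0.42 to 0.89.

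Genes that feed or follow these branches were also described. Of 15 tested genes of fatty acid supply and lipid storage (Elovl3, Elovl4 and Pnpla3 were not tested), 10 fell and 2 rose in hepatocyte-derived ducts and 11 fell and 3 rose in cholangiocyte-derived ducts against hepatocytes, and 2 were lower and 5 higher in hepatocyte-derived ducts than in cholangiocyte-derived ducts. The shares over all genes were 14.8% lower and 66.2% higher, 17.4% and 67.1%, and 21% and 15.1% in these comparisons. After rescaling by median ratios 1 gene was called higher in hepatocyte-derived ducts and 1 in cholangiocyte-derived ducts against hepatocytes. Before rescaling 12 of the 15 had a negative log2 fold change in each of these comparisons. Among them Idh1 averaged 103 ± 9.78 RPKM in hepatocyte-derived ducts, 75.3 ± 12.1 RPKM in cholangiocyte-derived ducts and 311 ± 28.9 RPKM in hepatocytes. Plin2, the main coat protein of lipid droplets in liver, averaged 257 ± 4.4 RPKM in hepatocyte-derived ducts, 89.9 ± 19.1 RPKM in cholangiocyte-derived ducts and 289 ± 38 RPKM in hepatocytes. It was not called in hepatocyte-derived ducts against hepatocytes (log2 fold change -0.16, SE 0.134, adjusted p = 0.278) and was 2.86-fold higher in hepatocyte-derived ducts than in cholangiocyte-derived ducts (log2 fold change 1.53, SE 0.126, adjusted p = 3.22e-07). Mlxipl, the carbohydrate-responsive transcription factor ChREBP, averaged 47.5 ± 7.96 RPKM in hepatocyte-derived ducts, 19.9 ± 3.86 RPKM in cholangiocyte-derived ducts and 64.1 ± 30.3 RPKM in hepatocytes and was higher in hepatocyte-derived ducts than in cholangiocyte-derived ducts (log2 fold change 1.22, SE 0.275, adjusted p = 0.00274). G6pdx, which makes NADPH in the pentose phosphate pathway, ran the other way, at 15.7 ± 2.08 RPKM in hepatocyte-derived ducts, 39.97 ± 4.46 RPKM in cholangiocyte-derived ducts and 4.24 ± 1.27 RPKM in hepatocytes. It rose in hepatocyte-derived ducts (log2 fold change 1.69, SE 0.146, adjusted p = 7.17e-08) and in cholangiocyte-derived ducts (log2 fold change 2.99, SE 0.146, adjusted p = 1.20e-10).

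A further list held 10 genes of the liver X receptors (LXR), sterol efflux and esterification. In hepatocyte-derived ducts against hepatocytes 6 fell and 1 rose, where 14.8% of all genes were lower and 66.2% higher. In cholangiocyte-derived ducts against hepatocytes 6 fell and 3 rose, where 17.4% were lower and 67.1% higher. Between the ductal groups 2 were lower and 3 higher in hepatocyte-derived ducts, beside 21% and 15.1% of all genes. The count of 2 lower is thus near the share over all genes. These counts moved with the processing. The genes called higher in hepatocyte-derived ducts against hepatocytes were 0 after rescaling, 3 with library weights and 2 without hepatocyte library 118. Those called higher in cholangiocyte-derived ducts against hepatocytes were 1 after rescaling, quantile normalization or a filter at 5 RPKM. Those called lower between the ductal groups were 4 with library weights and 0 with the filter at 5 RPKM, or without libraries 118 and 220 of cholangiocyte-derived ducts and hepatocyte library 118. Nr1h3, which encodes LXR alpha, a sterol sensor that drives Srebf1, averaged 29.9 ± 4.61 RPKM in hepatocyte-derived ducts, 14.9 ± 1.14 RPKM in cholangiocyte-derived ducts and 69.7 ± 15.9 RPKM in hepatocytes, and was higher in hepatocyte-derived ducts than in cholangiocyte-derived ducts (log2 fold change 0.94, SE 0.125, adjusted p = 3.22e-05). Its paralog Nr1h2 (LXR beta) had the opposite order of group means, but the ductal groups overlapped. Their ranges were 51.84 to 62.12 RPKM in hepatocyte-derived ducts and 57.04 to 65.81 RPKM in cholangiocyte-derived ducts. Nr1h2 was the 1 gene of this list called higher in hepatocyte-derived ducts against hepatocytes, a call lost after rescaling. It averaged 56.1 ± 4.62 RPKM in hepatocyte-derived ducts, 62.5 ± 3.76 RPKM in cholangiocyte-derived ducts and 29.3 ± 1.29 RPKM in hepatocytes. Abcg5 and Abcg8, which export sterols into bile, averaged 2.26 ± 0.985 and 2.79 ± 0.83 RPKM in hepatocyte-derived ducts, 1.38 ± 0.847 and 1.01 ± 0.34 RPKM in cholangiocyte-derived ducts, and 30.5 ± 7.83 and 16.3 ± 2.47 RPKM in hepatocytes, and fell in both ductal groups.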

How the data were processed

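RNA was measured by poly(A) sequencing (Illumina TruSeq RNA v2, 75 to 200 ng, per the labels' protocols; the kit does not mark strand, so antisense partners cannot be told apart). The authors deposited 1 table of RPKM values with 26005 transcript rows. Build mm9, Bowtie 0.12.7 and CASAVA are named in the submitters' processing notes; the sources used here do not name the counter or say how reads with several matches were handled. For 12 columns the name matched 1 sample; 2 columns numbered 220 match no title and were matched to their group only. The design text gives 3 hepatocyte samples and 4 were used. No 2 libraries shared more than 0.456% identical values. Depth was estimated from value steps of transcripts of 150 to 700 nt.

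The row with the highest mean stood for each symbol. log2(RPKM + 1) was fitted with limma 3.58.1 in R 4.3.3 (3 groups, 14 libraries, mean-variance trend, two-sided, Benjamini-Hochberg over 12638 symbols), without a block; the pseudocount understates changes of low genes. Steps were tested on simulated data. Figures were drawn with matplotlib 3.10.9, and tables made with numpy 2.4.6 and pandas 2.3.3 in Python 3.11.15. Members and lists were chosen with earlier results of these data known. Some genes of sterol synthesis and uptake outside the list of members are not reported here. Library values are given for the 5 regulators, the 6 members of each branch with the widest range of group means, and both genes of a ratio named; Mvd was added after its values were seen, and Elovl5 and Elovl6 are given as means. Library numbers were checked as pairs by correlating deviations from group means. For the pairs of both ductal groups r was 0.212 to 0.797. It was 0.133 to 0.512 for cholangiocyte-derived ductal cells with hepatocytes and 0.0208 to 0.193 for hepatocyte-derived ductal cells with hepatocytes. The last range lay below that of the ductal pairs and overlapped the other. Of the 10 pairs, 9 had r over 0.1. In most pairs the best match of the first library was its same-numbered partner. There were 2 exceptions, both in hepatocyte-derived ducts. Library 220 correlated best with library 118 of cholangiocyte-derived ducts, and library 248 with hepatocyte library 118. With these exceptions, and without labels that name the animals, the correlations do not settle which same-numbered libraries are paired. Alternatives were other pseudocounts (0.1 and 5), filters, scalings, row choice, library weights, the block and leaving out libraries.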

Additional observations from a re-analysis of the deposited data

Results flagged for a closer look

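Among 108 sets of library values (36 genes in 3 groups), 9 held a library far from the others of its group, with a gap of over 0.829 (4 libraries) or 0.71 (5 libraries) of the range. Chance gives about 1 in 20 such sets. Of the 9, 4 are hepatocyte library 118, which also carried the high macrophage and stellate cell markers: Srebf2 stood at 17.01 RPKM, against 31 to 33.4 in the other hepatocytes, Pmvk at 62.1, against 77.5 to 78.8, Acaca at 4.25, against 10.8 to 12.2, and Thrsp at 350.4, against 54.1 to 68.7. Hepatocyte library 611 held Insig1 at 137 RPKM, against 90.2 to 98.1, and Fdps at 69.3 RPKM, against 94.6 to 98.7. In hepatocyte-derived ducts, Scap was 25.6 RPKM in library 611, against 31.6 to 33.2, and Insig2 39.3 RPKM in library 220, against 53.4 to 58.7. In cholangiocyte-derived ducts, Acly was 94.97 RPKM in library 611, against 83.2 to 86.3.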

How the results depend on the processing

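The counts of sterol enzymes called lower stayed within 1.5 times under every alternative run: without each library they ran from 14 to 14 for hepatocyte-derived ducts against hepatocytes, 12 to 14 for cholangiocyte-derived ducts against hepatocytes and 5 to 8 between the ductal groups. With the replicate block, which uses the library numbers as pairs, the counts were 14, 12 and 8, and the block changed no member's call beyond those named above. The fatty acid genes called higher numbered 1 in hepatocyte-derived ducts against hepatocytes after rescaling by median ratios and after quantile normalization, 1 in cholangiocyte-derived ducts against hepatocytes after rescaling, and 3 between the ductal groups with no filter, or 3 to 5 without each library. Over the whole table, in hepatocyte-derived ducts against hepatocytes, 4670 of 12540 genes were called higher and 4613 lower after rescaling. After quantile normalization 4762 of 12604 were called higher and 4065 lower. For cholangiocyte-derived ducts against hepatocytes the counts were 5050 and 4821 after rescaling, then 4938 and 4741 after quantile normalization. Between the ductal groups 3017 were higher after quantile normalization and 2987 with library weights. Signs turned against hepatocytes, in hepatocyte-derived ducts, for Scap (-0.76 rescaled, -0.34 quantile), Gpam (-0.66 rescaled) and Dgat1 (-0.29 rescaled, -0.07 quantile), and in cholangiocyte-derived ducts for Srebf1 (-0.24), Me1 (-0.24) and Dgat1 (-0.54) rescaled, and Dgat1 (-0.36) and Fads2 (0.53) quantile. Between the ductal groups Scd1 (0.87, adjusted p = 0.0334) and Elovl6 (0.51, adjusted p = 0.00341) were called with library weights, and Thrsp (1.51, adjusted p = 0.00142) and Dgat2 (0.82, adjusted p = 0.0145) without libraries 118 and 220 of cholangiocyte-derived ducts and hepatocyte library 118. Elovl1 in cholangiocyte-derived ducts against hepatocytes was called after rescaling (-0.92), after quantile normalization (-0.24) and without hepatocyte library 611 (-0.20). The causes were not tested. Leaving out libraries 118 and 220 of cholangiocyte-derived ducts with hepatocyte library 118 left 0 gene pair ratios past the threshold for cholangiocyte-derived ducts against hepatocytes, since 3 against 3 libraries cannot reach it. Values near or under 1 RPKM, as for Idi1, rest on few reads.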
